A study of Drosophila melanogaster with 8 samples.

Results

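The genes described here encode subunits of the proteasome, the protease that degrades proteins tagged with ubiquitin. They were chosen by name: a probe set was taken where the platform annotation gave it 1 gene symbol starting with Prosalpha, Prosbeta, Rpn or Rpt and a digit. This gave 40 genes of 12069 named on either array type, 39 of them on the older type and all 40 on the newer. Where a gene had several probe sets on a type, the one with the highest mean log2 intensity stands for it. The 40 split into 26 constitutive subunits, which belong to the particle of most cells, and 14 gene copies, most of them known from the testis of flies. The 26 are 6 subunits of the alpha ring, 6 of the beta ring, 4 ATPases and 3 other subunits of the base, and 7 of the lid. They are not the whole particle: further subunits of both rings, the ATPase ring and the lid were not analysed here.

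RNA came from S2 cells, a line with haemocyte traits derived from embryos of Drosophila melanogaster. Per the labels the cells carried CLKGR, a protein that joins the circadian activator CLK to the hormone-binding domain of a glucocorticoid receptor. The label of 1 array calls them a stable transfectant, and the promoter of the fusion and whether the line was 1 clone are not given in the labels. All 8 arrays had cycloheximide (CHX), which blocks translation, so no group lacked it. On the older array type 2 arrays had ethanol (EtOH) and 2 had dexamethasone (DEX), which releases the fusion. On the newer type 2 arrays were labelled V, a term the labels do not explain, and 2 were labelled DEX. The labels give neither doses and times nor whether a group's arrays were separate cultures. The p-values therefore reflect array-to-array spread, which may be technical.

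The core particle of the proteasome is a barrel of stacked rings. The outer rings of alpha subunits form the gate, and the inner rings of beta subunits hold the proteolytic sites. A regulatory particle caps the barrel: its base holds a ring of Rpt ATPases that unfold substrates, and its lid holds Rpn11, which removes ubiquitin. In the circadian clock of flies the proteasome degrades PER and TIM, the proteins that repress CLK.

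Intensities are given as log2 of the deposited value, so a difference of 1 is a doubling on that scale. The deposited values are linear, and no source used here gives the base with which the log step of GCRMA was undone. With base e, log2 differences would shrink by a factor of 0.693 while p-values would not move. The levels, SEs, intervals and the minimum of 4 given below would shrink by the same factor. The highest log2 values were 21.02 on the older type (EtOH array 1) and 22.29 on the newer (both V arrays). Every array had some values above the ceiling of a 16-bit scanner, and base e would lower them. The base was not tested, so the printed differences may be too large by that factor. The 2 tables were normalised separately, so levels are compared only within a type, and never between genes. A probe set was tested where its mean log2 value was at least 4. limma called a probe set at a Benjamini-Hochberg adjusted p under 0.05 over all probe sets tested.

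The target gene vri, a bZIP repressor of the clock loop, checks the treatment. It stood at 6.56 and 6.81 on the EtOH arrays and at 10.42 and 11.03 on the DEX arrays of the older type, a rise of 4.04 ± 0.26 (SE, limma adjusted p = 0.0056). Newer arrays labelled V read 12.41 and 12.66, and those labelled DEX 10.60 and 10.34. That is the opposite order, with a difference of -2.07 ± 0.16 (adjusted p = 0.849). The clock gene tim, which differed by 2.62 ± 0.41 and -2.53 ± 1.01, showed the same opposite order without passing. Its newer V arrays read 5.01 and 7.58 and both DEX arrays 3.76, under the minimum of 4. The newer order of tim thus rests on low and uneven values. The newer probe set of vri and the older one of tim end in _s_at and can read other genes. Clk, whose newer probe set also ends in _s_at, differed by -0.89 ± 0.22 and 0.33 ± 0.15. Whether its probe sets also read the fusion was not tested. Because this check goes against the labels of the newer type, each type is described alone before any fit of both, and "DEX" on the newer type means the arrays so labelled. As a check of the cell type, 7 of 8 measured haemocyte markers on the older type and 9 of 9 on the newer had control means of at least 6. So had 0 of 3 neuron markers on either type, though elav lay at 6.44 and 5.51 on the V arrays. With no detection call these are values of single probe sets against a fixed level, and they do not settle the cell type.

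The constitutive subunits were read strongly on every array and no change with DEX was called in any of them. Control means ran from 7.45 to 12.86 on the older type, and on the newer from 11.03 to 14.22. limma called 0 of 34 tested members on the older type, where 0.263% of all 10250 probe sets were called. It called 0 of 30 on the newer type, where 0.0% of 12436 were called. At an unadjusted p under 0.05 lay 1 member on each type, Rpn8 on the older and Rpt5 on the newer. The smallest adjusted p among members was 0.612 on the older type and 0.865 on the newer.

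**Figure D1:**
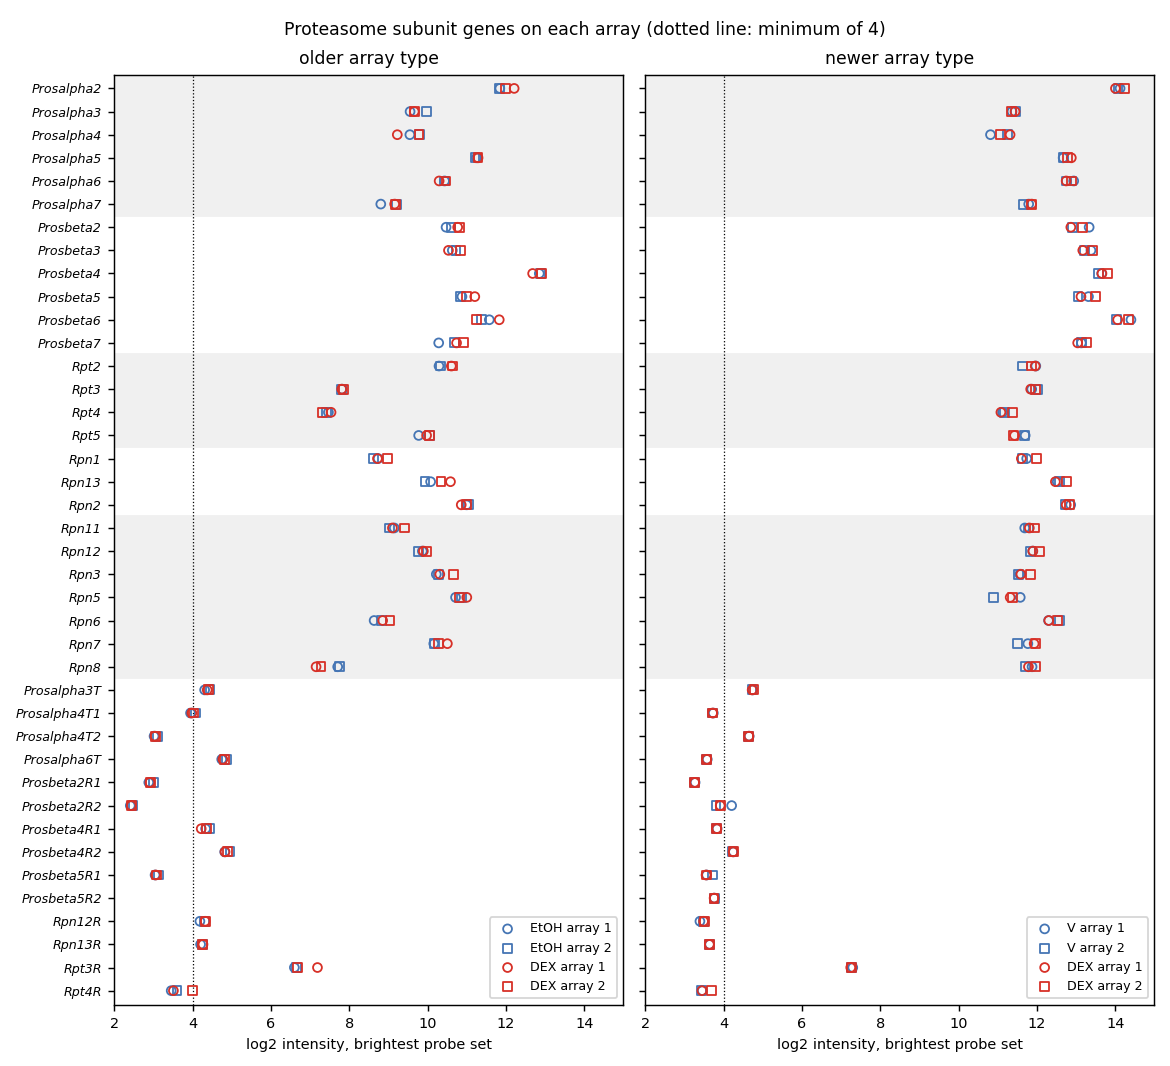
Log2 intensity (horizontal axes) of each of the 40 proteasome subunit genes (rows, shaded by role) on each array, with controls in blue and DEX in red, circles for array 1 and squares for array 2. The 26 constitutive subunits sit above 7 on all arrays, while the copies sit near or under 5 except Rpt3R; levels are not comparable between rows or panels.

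The intervals of the differences show how precisely each was measured. They are not adjusted for the number of probe sets, and do not give the size of change that would be called. On the older type the 95% intervals (limma) of all 26 constitutive subunits lay within 1 log2 unit on either side of 0, and those of 6 within 0.5. Of the newer intervals, 25 of 26 lay within 1 and 14 within 0.5, the exception being Rpn5 with an upper bound of 1.00. The outermost bounds on the older type were -0.89 for Rpn8 and 0.93 for Rpn13. SEs ran from 0.16 to 0.25 on the older type and from 0.082 to 0.29 on the newer. A difference outside these intervals can also go without a call, as that of vri did on the newer type.

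**Figure D2:**
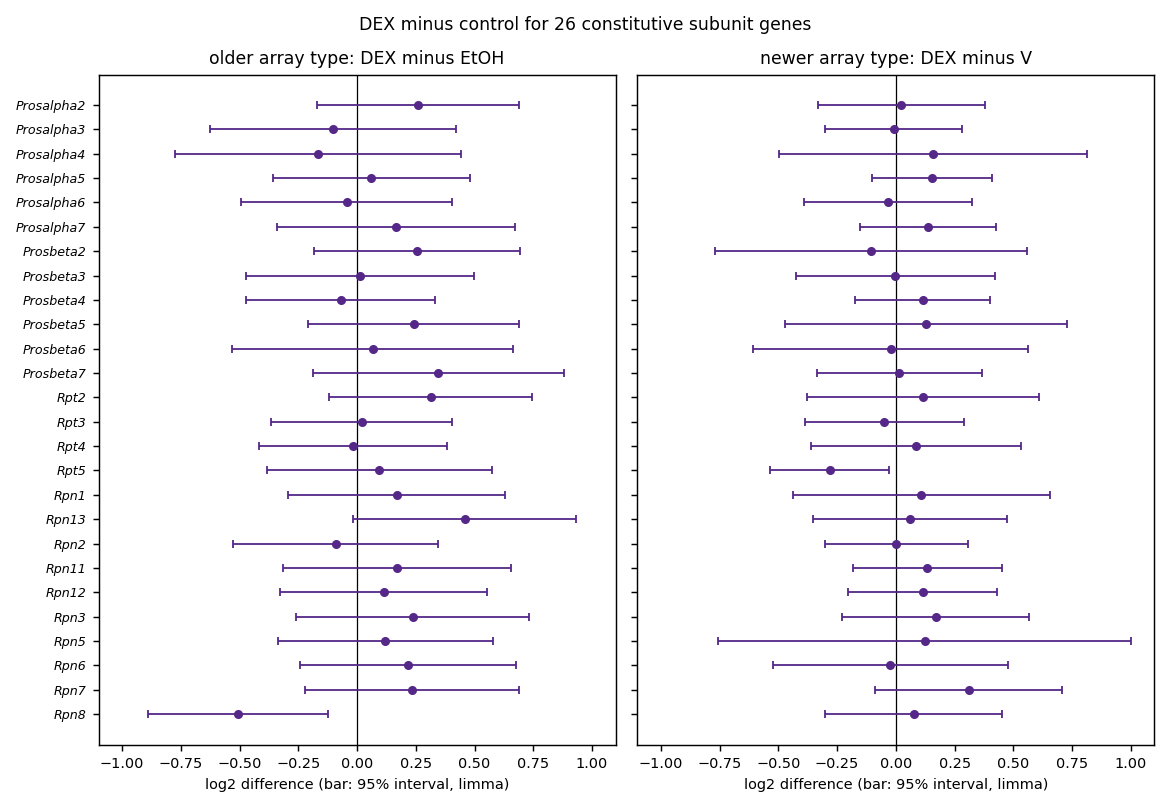
Difference between DEX and control in log2 intensity (horizontal axes, points) with its 95% interval (bars, limma) for the 26 constitutive subunit genes, older type on the left and newer on the right. Only the intervals of Rpn8 (older) and Rpt5 (newer) leave out 0, and neither passed after adjustment.

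The small differences were more often positive than negative on both types, as were those of other bright probe sets. On the older type 19 of 26 constitutive subunits had a positive difference, with a median of 0.117. Over all probe sets tested the median was -0.014 and 41.1% were positive, and among those with a mean log2 of at least 6 it was 0.050 and 58.9%. The constitutive subunits were brighter than that level. Among the 2452 probe sets no dimmer than the dimmest of them (mean 7.44) the median was 0.076 and 62.3% were positive. Among newer differences 18 of 26 were positive with a median of 0.080, against 0.060 and 60.9% among probe sets of at least 6. Among the 1283 no dimmer than the dimmest subunit (mean 11.11) the median was 0.092 and 71.3% were positive, so the newer subunits did not exceed their bright background. Counted over the tested members, which include some copies, 23 of 34 were positive on the older type and 20 of 30 on the newer. With quantile normalisation repeated these counts were 20 and 17, with medians of 0.021 and 0.016. With median centring they were 26 and 23, with medians of 0.093 and 0.062. No p is given for such a median, since the members were chosen with results of these data known.

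In the alpha ring, which gates the barrel, the differences were small and mixed in sign. Prosalpha4 read 9.55 and 9.79 with EtOH and 9.23 and 9.78 with DEX on the older type, so its groups overlapped. Its newer arrays read 10.81 and 11.24 with V and 11.31 and 11.06 with DEX, again overlapping. Its differences were -0.17 ± 0.25 (SE) and 0.16 ± 0.21. Prosalpha3, whose N-terminal tail closes the gate in yeast, read 9.55 and 9.97 with EtOH and 9.66 on both DEX arrays. The newer values were 11.36, 11.45, 11.44 and 11.35 in the order V and then DEX. All 4 newer arrays thus lay within 0.095 of each other, and its differences were -0.10 ± 0.21 and -0.009 ± 0.095. Prosalpha2, Prosalpha5, Prosalpha6 and Prosalpha7 differed by -0.044 to 0.26 on the older type and by -0.033 to 0.15 on the newer. A dimmer older probe set of Prosalpha7 gave -0.15 ± 0.17 where the brightest gave 0.17 ± 0.21, so its sign was not settled.

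In the beta ring 2 subunits with proteolytic sites were measured, and the other was not analysed here. Prosbeta5, of the chymotrypsin-like site, read 10.88 and 10.84 with EtOH and 11.20 and 11.00 with DEX on the older type. Both DEX arrays were higher there, by 0.24 ± 0.18. The newer type gave 13.32 and 13.05 with V and 13.13 and 13.50 with DEX, and the groups overlapped at a difference of 0.13 ± 0.20. That probe set ends in _s_at and can read other genes, so the newer value is uncertain. Prosbeta2, of the trypsin-like site, read 10.47 and 10.60 with EtOH and 10.77 and 10.81 with DEX, a difference of 0.25 ± 0.18 with no overlap. Newer arrays read 13.33 and 12.91 with V and 12.87 and 13.17 with DEX, an overlapping difference of -0.11 ± 0.22. Neither site's gene passed on either type (adjusted p of at least 0.893).

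The beta subunits without a proteolytic site had differences that were not called either. Prosbeta7 read 10.28 and 10.69 with EtOH and 10.74 and 10.93 with DEX on the older type, a difference of 0.35 ± 0.22. Its newer values, 13.13 and 13.14 with V against 13.04 and 13.27 with DEX, spanned both sides of the controls (0.015 ± 0.12, an uncertain _s_at probe set). Prosbeta4 read 12.85 and 12.87 with EtOH and 12.68 and 12.90 with DEX. Its newer values were 13.65 and 13.58 with V and 13.66 and 13.80 with DEX, so that both DEX arrays were just above, by 0.11 ± 0.093. Prosbeta3 and Prosbeta6 differed by 0.011 and 0.066 on the older type and by -0.0025 and -0.023 on the newer. A dimmer older probe set of Prosbeta6 differed by -0.079 ± 0.18.

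Among the ATPases of the base, Rpt2 on the older type and Rpt5 on the newer had the differences furthest from 0, and neither was called. Rpt2 read 10.29 and 10.33 with EtOH and 10.61 and 10.65 with DEX on the older type, a difference of 0.31 ± 0.18 with closely spaced arrays. Newer V arrays at 11.97 and 11.63 enclosed DEX arrays at 11.96 and 11.87 (0.11 ± 0.16). Rpt5 had the lowest difference of any member on the newer type: 11.70 and 11.69 with V against 11.43 and 11.39 with DEX. Its groups did not overlap and the difference was -0.28 ± 0.082 (adjusted p = 0.865). On the older type Rpt5 read 9.77 and 10.06 with EtOH and 9.97 and 10.04 with DEX, an overlapping difference of 0.094 ± 0.20. Rpt3 was the most even of the ATPases on the older type, with EtOH at 7.81 and 7.80 and DEX at 7.81 and 7.85. Its newer values were 11.87 and 12.03 with V and 11.84 and 11.95 with DEX. Rpt4 differed by -0.019 ± 0.16 and 0.085 ± 0.15.

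The non-ATPase subunits of the base include Rpn13, a ubiquitin receptor, which had the largest positive difference of any member on the older type. It read 10.08 and 9.93 with EtOH and 10.58 and 10.34 with DEX, or 0.46 ± 0.19 more, which was not called (adjusted p = 0.877). Its newer values were 12.52 and 12.58 with V and 12.47 and 12.75 with DEX, where the DEX arrays enclosed the V arrays (0.060 ± 0.13, an uncertain _s_at probe set). Rpn1, which binds ubiquitin shuttles, and Rpn2 are scaffold subunits. They differed by 0.17 and -0.091 on the older type and by 0.11 and 0.0015 on the newer.

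In the lid, Rpn8 was the member furthest from 0 on either type. Rpn8, the inactive partner of the deubiquitinase Rpn11, read 7.70 and 7.74 with EtOH and 7.15 and 7.28 with DEX on the older type. Both DEX arrays were lower, by -0.51 ± 0.16 (95% interval -0.89 to -0.13, limma adjusted p = 0.612). Its newer values were 11.88 and 11.72 with V and 11.78 and 11.96 with DEX, and the groups overlapped at 0.075 ± 0.12. It was the only member of the 26 with both DEX arrays under both controls on the older type, as Rpt5 was on the newer. Among probe sets with a mean log2 of at least 6 that share was 14.0% on the older type and 11.9% on the newer, and over all tested it was 13.6% and 23.9%. Among those no dimmer than the dimmest subunit it was 13.3% and 6.70%.

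The structural lid subunits Rpn3, Rpn7 and Rpn12 lay higher on both DEX arrays of both types, as did Prosalpha5 of the alpha ring. Rpn7 read 10.16 and 10.17 with EtOH and 10.50 and 10.29 with DEX, then 11.77 and 11.51 with V and 11.93 and 11.97 with DEX. Its differences were 0.23 ± 0.19 and 0.31 ± 0.13, the latter the highest of any member on the newer type. Rpn3 read 10.22 and 10.27 with EtOH and 10.31 and 10.65 with DEX, then 11.56 and 11.54 with V and 11.59 and 11.85 with DEX. For Rpn3 the lower DEX array exceeded the higher control by less than 0.1 on either type. The nearest control and DEX arrays of Rpn12 read 9.86 and 9.89 on the older type, and 11.8906 and 11.8965 on the newer. Those of Prosalpha5 read 11.25 and 11.29 on the older type, and 12.68 and 12.78 on the newer. The differences of Rpn12 were 0.11 ± 0.18 and 0.11 ± 0.10, and those of Prosalpha5 were 0.059 ± 0.17 and 0.15 ± 0.084. These 4 of the 26 were named after their values were seen. They compare with 5.03% of the 3141 genes that had means of at least 6 on both types. The share was 2.52% of all 8404 genes measured on both types with a mean of at least 4 over the 8 arrays. The share on both types was not counted for genes no dimmer than the dimmest subunit. On each type alone, 27.3% of such probe sets had both DEX arrays higher. That exceeds the 24.3% (older) and 20.4% (newer) of probe sets of at least 6, so 5.03% may be too low a reference. None of the 4 passed on either type. The count rests on the labels of the newer type, which the check of vri goes against. With the newer sign turned, so that the older DEX arrays are higher and the newer ones lower, 0 of the 26 qualified, against 3.09% of those 3141 genes and 1.81% of all 8404.

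Counted by type, 11 of 26 constitutive subunits had both DEX arrays above both EtOH arrays on the older type. The same was seen in 24.3% of probe sets with a mean of at least 6 and in 13.0% of all tested, and in 27.3% of those no dimmer than the dimmest subunit. Newer arrays gave 7 of 26 with both DEX arrays above both V arrays, against 20.4% of probe sets of at least 6, 13.0% of all tested and 27.3% of those no dimmer than the dimmest subunit. The remaining lid subunits Rpn5, Rpn6 and Rpn11 differed by 0.12 to 0.22 on the older type and by -0.024 to 0.13 on the newer. For Rpn5 the V arrays stood 0.69 apart, at 11.57 and 10.88, the widest spread between 2 controls of a constitutive subunit on that type.

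The arrays of a group differed among themselves. DEX array 2 of the newer type lay above its DEX array 1 in 20 of 26 constitutive subunits, whereas it did so in 44.1% of probe sets of at least 6 and 51.4% of those no dimmer than the dimmest subunit. It was the highest of the 4 arrays for 13 of 26, against 23.4% and 31.6% of such probe sets. The median deviation of the 26 genes from their own mean was 0.122 on DEX array 2 and -0.066 on DEX array 1, with the V arrays at -0.009 and -0.079. DEX array 1 thus lay among the V arrays. The labels of DEX array 2 disagree on its number, its title giving 2 and its source name 1, but both name the same treatment. Without DEX array 2 the median difference of the 30 tested members changed from 0.042 to -0.026.

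On the older type too, DEX array 2 was most often the highest array, for 12 of 26 constitutive subunits. That compares with 22.2% of probe sets of at least 6 and 24.1% of those no dimmer than the dimmest subunit. It lay above DEX array 1 in 17 of 26, against 44.8% and 43% of such probe sets. EtOH array 1 was the highest array for 0 of 26 constitutive subunits, against 18.9% of probe sets of at least 6 and 19.4% of those no dimmer than the dimmest subunit, and the lowest for 10. Median deviations were -0.077 and -0.015 on the EtOH arrays and 0.017 and 0.079 on the DEX arrays. Without EtOH array 1 the median difference of the 34 tested members was 0.017, in place of 0.068. The replicates of the constitutive subunits lay close: the median SD between arrays of a group was 0.116 on the older type and 0.124 on the newer, against 0.180 and 0.198 over probe sets of at least 6 and 0.185 and 0.162 over those no dimmer than the dimmest subunit.

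**Figure D3:**
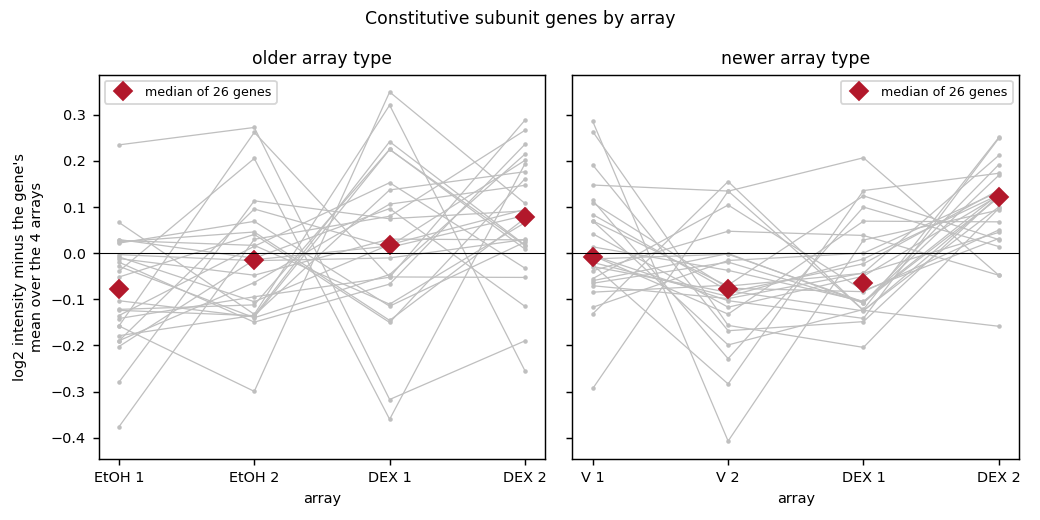
Log2 intensity of each of the 26 constitutive subunit genes minus its mean over the 4 arrays of a type (vertical axis; grey lines join the arrays of 1 gene), by array, with the median of the genes as red diamonds. On the newer type the median rises to 0.122 on DEX array 2 while DEX array 1 (-0.066) sits between the V arrays (-0.009 and -0.079). On the older type the median is also highest on DEX array 2, at 0.079.

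The differences on the 2 types were then set against each other in 1 limma fit of all 8 arrays, with the older difference subtracted from the newer. A gene measured on both types entered this fit where its mean log2 over the 8 arrays was at least 4. Prosalpha6T and Prosbeta4R1 entered it though their means on the newer type lay under 4. The fit called 0 of 31 members, where 0.297% of 8404 genes were called. Among these members 1, Rpn8, lay at an unadjusted p under 0.05. For Rpn8 the newer difference exceeded the older by 0.58 ± 0.21 (SE, adjusted p = 0.914). At the other end were Rpn13 at -0.40 ± 0.23, Rpt5 at -0.38 ± 0.21 and Prosbeta2 at -0.36 ± 0.26, and Prosalpha4 and Prosbeta4 stood at 0.33 ± 0.35 and 0.18 ± 0.18. Among the 26 constitutive subunits 13 had a positive difference on both types, 2 a negative one on both, and 11 had opposite signs. Across these 26 genes, which share the same arrays and are not independent, the differences on the types had Pearson r = 0.0705 and Spearman rho = 0.124. No constitutive subunit differed by more than 0.51 on the older type or 0.31 on the newer, whereas single genes of the whole array reached 4.04 and 3.49.

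**Figure D4:**
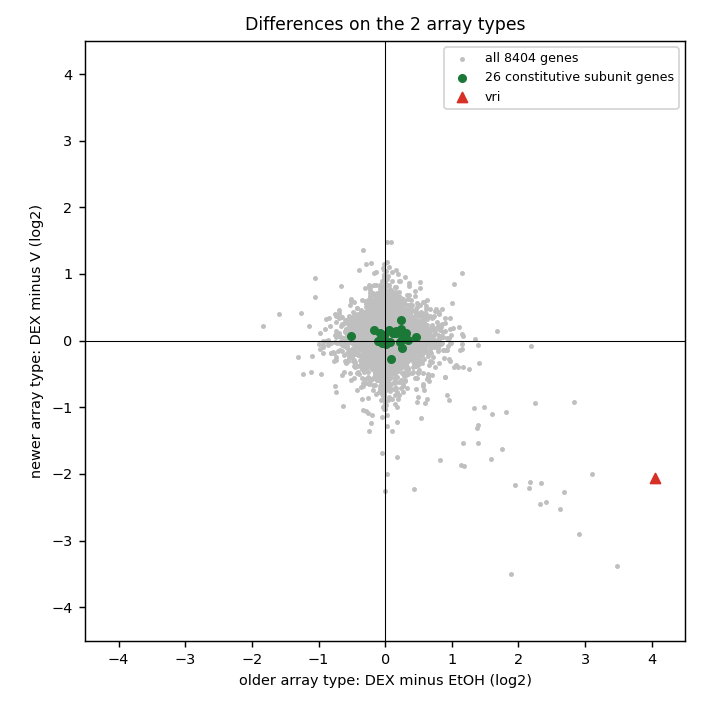
Difference between DEX and control in log2 intensity on the older (horizontal axis) and newer array type (vertical axis). Points are all 8404 genes in the fit of all 8 arrays (grey), the 26 constitutive subunit genes (green) and vri (red triangle). The subunit genes lie within 0.51 of 0 on the older type and 0.31 on the newer, while vri lies at 4.04 and -2.07.

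With array type as a block, a further limma fit asked for a difference common to both types. It called 0 of 31 members, with 0.0% of all 8404 genes called, and 1 member, Rpn7, lay at an unadjusted p under 0.05. Rpn7 stood at 0.27 ± 0.10 (SE, 95% interval 0.039 to 0.50, adjusted p = 0.901), followed by Rpn13 at 0.26 ± 0.13 and Rpt2 at 0.21 ± 0.11. Rpn8 was lowest at -0.22 ± 0.14. As deposited, the 6 measured beta subunits were all positive in this fit, between 0.004 and 0.19, beside 65.1% of genes with a mean of at least 6. The median over all 31 members was 0.073, over all 8404 genes 0.003, and over genes with a mean of at least 6 it was 0.063. With the sign of the newer type turned, the order was another one: Rpn13 was highest at 0.20 ± 0.11, then Rpt5 at 0.19 ± 0.10, while Rpn7 stood at -0.038 ± 0.11 and Rpn8 at -0.29 ± 0.10. Turned, 5 of the 6 beta subunits and 16 of all 31 members were positive, with a median of 0.0068 over the members and -0.0057 over all genes.

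The gene copies formed the other part of the family. Except for Rpt3R, their values lay under 5 on every array. Each duplicates a single subunit gene. On the older type the 12 measured copies other than Rpt3R had control means between 2.44 and 4.88, and on the newer type the 13 lay between 3.26 and 4.73. No detection call was used here, so a low level and none cannot be told apart. Of the copies 8 of 13 passed the minimum of 4 on the older type and 4 of 14 on the newer. Just above the minimum lay Prosalpha4T1 (3.94 to 4.08 over the older arrays) and Prosbeta4R2 (4.23 to 4.26, newer). Just under it lay Rpt4R (3.45 to 3.99, older) and Prosbeta2R2 (3.80 to 4.20, newer).

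The copies followed the dim probe sets of their array type. On the older type EtOH array 1 was the lowest for 11 of the 12 copies other than Rpt3R, and EtOH array 2 the highest for 9. Probe sets with a mean log2 under 5 behaved alike, with EtOH array 1 lowest in 62.9% and EtOH array 2 highest in 84.0%. The median range over the 4 arrays was 0.128 for the 12 copies on the older type and 0.022 for the 13 on the newer, against 0.355 and 0.264 for the constitutive subunits. Prosalpha3T, for example, read 4.31 and 4.44 with EtOH and 4.37 and 4.40 with DEX, then 4.74 and 4.73 with V and 4.73 and 4.77 with DEX. The newer values of Prosbeta4R1 stayed between 3.81 and 3.83. Rpt4R had 1 array apart from the rest on each type: DEX array 2 read 3.99 beside 3.45, 3.60 and 3.51, and on the newer type 3.69 beside 3.45, 3.44 and 3.44.

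The values of Rpt3R, a copy of the ATPase subunit gene Rpt3, lay above 6 on every array. It stood at 6.60 and 6.65 with EtOH and at 7.19 and 6.67 with DEX on the older type, so 1 DEX array was high and the other lay by the controls. Its 4 newer arrays read 7.30 and 7.27 with V and 7.25 and 7.27 with DEX, a range of 0.052. Its differences were 0.30 ± 0.20 (SE) and -0.028 ± 0.10, and neither passed. Among 8 measured testis and germline markers, 2 on the older type and 3 on the newer had control means of at least 6. These were aub and mia on both and bam on the newer, while vas, bol, can and sa stayed at or under 5.15 on all arrays.

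Genes that work with the proteasome were read from a list of 24, of which 22 were measured on each type. They cover ubiquitin, shuttles, cullin ligases, assembly factors and the cnc pathway, which controls proteasome genes. limma called 0 of 22 on either type, and 0 lay at an unadjusted p under 0.05. Differences were positive for 13 of 22 on the older type and 10 of 22 on the newer, with medians of 0.058 and -0.006. The 3 with the smallest p on the older type were Nedd8, a modifier that activates cullin ligases (0.40 ± 0.18, adjusted p = 0.917), the polyubiquitin gene Ubi-p63E (0.16 ± 0.12) and the shuttle gene Rad23 (0.31 ± 0.25). Nedd8 read 11.61 and 11.84 with EtOH and 12.08 and 12.18 with DEX, and 11.25 and 11.25 with V and 11.38 and 11.10 with DEX. On the newer type Pomp, an assembly chaperone of the core particle, had the smallest p, at 0.26 ± 0.11 (limma adjusted p = 0.865). Next came the core activator gene REG at 0.24 ± 0.19 and Cul1 at 0.13 ± 0.10 (an uncertain _s_at probe set). Pomp read 8.57 and 8.71 with V and 8.89 and 8.91 with DEX, and on the older type its EtOH arrays at 6.96 and 7.60 enclosed the DEX arrays at 7.47 and 7.36. The transcription factor gene cnc differed by -0.14 ± 0.12 and -0.008 ± 0.072, with only the brightest of its 4 older and 2 newer probe sets given. Its newer probe set, which ends in _s_at, read 5.68 to 5.70 on all arrays. With no detection call, such a low level and none cannot be told apart.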

How the data were processed

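Biotin-labelled total RNA was read on 8 Affymetrix arrays. Per the submitters' processing notes the deposited intensity values, 1 per probe set and array, were made with GCRMA, which corrects background, normalises by quantiles and summarises probes; no source used here gives the version. Here log2 was taken with no pseudocount, since all values were above 0, and 44 and 183 control probe sets (older and newer type) were left out. Groups came from the titles and the array type from the table. The types were fitted separately in limma 3.58.1 (R 4.3.3) (eBayes with an intensity trend, two-sided, Benjamini-Hochberg adjustment, 2 residual degrees of freedom). All 8 arrays were fitted with an interaction term, and with array type as a block. The fits were tested on simulated data.

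Symbols were matched to the RefSeq genes of Release 6 plus ISO1 MT: 12393 of 12443 probe sets with 1 symbol matched on the older type and 13543 of 13646 on the newer, and all members did. No arrays held identical values, 0 columns lacked a sample, and no sequences or coordinates were used. On the newer type the probe sets of Prosbeta5, Prosbeta7, Rpn6, Rpn13 and Rpn12R end in _s_at and can read other genes, and those of Prosalpha5, Prosalpha7 and Rpt3R end in _a_at and can read several transcripts. Values above 65535, the ceiling of a 16-bit scanner, occurred in up to 70 probe sets of an older array and 142 of a newer one, of which 0 were members.

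Values in every array are given, by rule, for the measured catalytic subunits and for the 3 highest and 3 lowest members of the older, newer and difference fits; Rpt3R, Rpt4R, Prosalpha3T and Rpn5 were added after their values were seen. The members and lists were chosen with earlier results of these data known. A planned search of promoters was not run, since no sequence table was used here. Alternatives were the minimum, the normalisation, the variance trend, the probe set rule, a fit of all arrays, and leaving out each array. Added after seeing the data were the comparisons with bright probe sets (mean log2 of at least 6, or no dimmer than the dimmest constitutive subunit). So were the newer sign turned, the replicate number as a block, and a fit of each type alone to the genes of the fit of all arrays. The value with the newer sign turned is the interaction estimate divided by -2.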

Additional observations from a re-analysis of the deposited data

Results flagged for a closer look

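Among the members, Rpt3R had both DEX arrays above both controls on the older type and under both on the newer. It was 1 of 31 members in the fit of all 8 arrays, beside 1.81% of all 8404 genes there. The groups barely parted: the nearest control and DEX arrays read 6.65 and 6.67 on the older type and 7.273 and 7.269 on the newer. The test of its difference between the types, -0.33 ± 0.27 (SE, newer minus older), did not pass (limma adjusted p = 0.9998). Among the genes that checked the treatment, vri had opposite orders on the types, and the difference of -6.11 ± 0.34 passed (adjusted p = 0.0011). tim (-5.15 ± 1.12, adjusted p = 0.372) and Clk (1.22 ± 0.28, adjusted p = 0.429) also had opposite orders, and their differences did not pass.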

How the results depend on the processing

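In none of the 60 alternative fits run was a member called; the smallest adjusted p of a member was 0.202 (without DEX replicate 2 of the older type). The median difference of the members lay above that of all features in 14 of 14 alternatives on the older type. So it did in 13 of 14 on the newer (not without DEX replicate 2) and 16 of 16 with array type as a block. For the newer minus older difference it did so in only 1 of 16. The alternatives reuse the same arrays, so these counts are not repeated support, and all features include dim probe sets. Against probe sets no dimmer than the dimmest subunit, the newer median of the 26 constitutive subunits was lower (0.080 against 0.092). The older one was higher (0.117 against 0.076). On the older type the median of the tested members, 0.068, was 0.12 with a minimum of 6 and 0.093 with median centring. It was 0.021 with quantile normalisation repeated, and 0.017 to 0.104 with an array left out. On the newer type it was -0.026 to 0.118 with an array left out. The newer minus older median, -0.014, was -0.081 to 0.047 with an array left out. The cause was not tested.

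The count of all probe sets called on the older type, 27, was 73 with no minimum, 13 with a minimum of 6, 0 with median centring, 4 with quantile normalisation repeated, 12 with no trend, 14 with all 8 arrays in 1 fit of 8404 genes and 0 to 455 with an array left out (0 without either EtOH array, 263 without DEX replicate 1, 455 without DEX replicate 2). That of the difference, 25, was 12 with plain _at probe sets and 5 (without older EtOH replicate 1) to 97 (without newer V replicate 1) with an array left out. On the newer type 14 of 8404 genes were called with all 8 arrays in 1 fit, against 0. Fitting the 4 arrays of a type alone to those 8404 genes called 22 on the older type and 0 on the newer. Leaving out an array leaves a lone one in its group, taken to vary like the others. The labels number 1 control array of each type as 2, and the other was taken as 1. The deviations of same-numbered arrays correlated at 0.264 on the older type and -0.023 on the newer, and nothing in the labels says that a number marks a shared culture or day. With the replicate number as a block, 0 members were called in any fit and the medians stayed at 0.068, 0.042, -0.014 and 0.073 (older, newer, difference, both), while the calls over all features were 34, 0, 6 and 0. The number of arrays, 2 a group and type, limits the precision.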
